A study of Mus musculus with 8 samples.

Results

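*Gdf15*, which encodes a secreted cytokine of the TGF-β superfamily, and 9 genes of the integrated stress response were examined in bone marrow-derived macrophages (BMDMs) with and without NCOA6, a nuclear receptor coactivator. The genes were *Atf4*, *Atf3*, *Ddit3*, *Trib3*, *Ppp1r15a*, *Asns*, *Chac1*, *Ddit4* and *Sesn2*, and together with *Gdf15* they make 10 of the 50615 genes in the table of counts. They were listed by name as *Gdf15* and known targets or regulators of ATF4 and CHOP. *Gdf15* itself was chosen by its values in these libraries, a knockout effect that was larger with LPS + MSU than with medium alone, so that its levels are given as a description without a test, and the other 9 genes were compared with it. All 10 genes were among the 17625 genes tested, which had a sum of at least 10 counts over the 8 libraries.

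The libraries came from C57BL/6 mice with a floxed *Ncoa6*, which in 1 genotype also carried Cre. BMDMs of *Ncoa6* fl/fl mice without Cre (Ncoa6-sufficient, given as WT in the labels) were compared with BMDMs of *Ncoa6* fl/fl LysM CRE mice (Ncoa6-KO). Cre is driven from the lysozyme 2 locus (*Lyz2*), which is active in myeloid cells. Bone marrow cells of both genotypes were grown in M-CSF at 20 ng/ml for 6 days and then left in medium alone, or first received LPS (100 ng/ml, 4 h) and after it monosodium urate (MSU) crystals (200 µg/ml, 2 h). The 4 groups comprised 2 libraries each, made from different mice within a group. The sources used here do not say whether both culture conditions of a genotype came from the same mice. The age and sex of the mice are not given there either.

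The integrated stress response is the pathway by which kinases that sense misfolded proteins, missing amino acids, double-stranded RNA or heme deficiency phosphorylate the translation factor eIF2α. General protein synthesis then slows, while the mRNA of the transcription factor ATF4 is translated more efficiently, so that ATF4 activity is set largely at the level of the protein and only partly at the level of its mRNA. ATF4 and its partner CHOP turn on genes for amino acid supply, for redox balance and for the shutdown of the response, and in many tissues *Gdf15* is among the genes that rise with them, although the tumor suppressor p53 can also turn it on.

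Library totals ranged from 25281955 to 33673552 counts. TMM scaling factors, which correct for differences in RNA composition, were 1.23 to 1.29 with medium alone and 0.766 to 0.829 with LPS + MSU. *Ncoa6* itself had 1515 and 1405 normalized counts in Ncoa6-sufficient and 784 and 622 in Ncoa6-KO libraries with medium alone, and 1297 and 1173 against 563 and 526 with LPS + MSU, so that the libraries of each genotype stood apart as labelled. These are counts over the whole gene, of which only the floxed part is deleted. A list of 7 macrophage markers summed to between 270000 and 516000 normalized counts per library. Of 22 markers of neutrophils, B cells, T and NK cells and dendritic cells, 7 averaged below 1 normalized count, among them *Ly6g*, *Cd3e*, *Cd3g*, *Ncr1* and *Siglech*. The highest means were 233 for *S100a9*, 187 for *Ngp* and 124 for *S100a8*, which mark neutrophils, 72.8 for *Xcr1* of dendritic cells, 57.8 for *Cd4* and 23.0 for *Cd79b* of B cells.

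The promoters of genes on which the comparison with *Gdf15* turns are shown first, as 250 bases before to 50 bases after the transcription start in RefSeq (GRCm38.p6), each read 5′ to 3′ along its gene. Capitals mark a match to TGATGNAA, the composite element of C/EBP and ATF proteins, or to TGACGTCA, the cyclic AMP response element, on either strand. *Gdf15* is shown with both of its annotated starts. *Sesn2* and *Ppp1r15a* are shown because they differed between genotypes with LPS + MSU, and *Atf3*, *Chac1*, *Trib3* and *Asns* because they hold the composite element.
Gdf15, chr8:70632046-70632345, reverse strand: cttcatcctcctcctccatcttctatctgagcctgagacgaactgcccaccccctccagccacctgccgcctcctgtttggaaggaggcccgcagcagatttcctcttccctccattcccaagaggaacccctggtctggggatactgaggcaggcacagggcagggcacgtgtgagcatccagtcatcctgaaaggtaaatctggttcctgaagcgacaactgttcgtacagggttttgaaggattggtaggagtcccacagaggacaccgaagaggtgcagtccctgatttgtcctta
Gdf15, chr8:70632407-70632706, reverse strand: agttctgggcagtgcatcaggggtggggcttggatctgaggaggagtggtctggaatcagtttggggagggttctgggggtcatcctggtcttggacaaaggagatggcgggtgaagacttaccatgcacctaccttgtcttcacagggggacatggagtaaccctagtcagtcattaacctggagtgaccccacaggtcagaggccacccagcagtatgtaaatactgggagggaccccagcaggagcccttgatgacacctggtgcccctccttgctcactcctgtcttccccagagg
Sesn2, chr4:132510407-132510706, reverse strand: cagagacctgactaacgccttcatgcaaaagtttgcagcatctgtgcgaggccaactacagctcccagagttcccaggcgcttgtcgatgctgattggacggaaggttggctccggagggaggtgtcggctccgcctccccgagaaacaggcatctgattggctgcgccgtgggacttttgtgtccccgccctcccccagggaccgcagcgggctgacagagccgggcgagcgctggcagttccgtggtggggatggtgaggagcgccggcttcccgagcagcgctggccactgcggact
Ppp1r15a, chr7:45526219-45526518, reverse strand: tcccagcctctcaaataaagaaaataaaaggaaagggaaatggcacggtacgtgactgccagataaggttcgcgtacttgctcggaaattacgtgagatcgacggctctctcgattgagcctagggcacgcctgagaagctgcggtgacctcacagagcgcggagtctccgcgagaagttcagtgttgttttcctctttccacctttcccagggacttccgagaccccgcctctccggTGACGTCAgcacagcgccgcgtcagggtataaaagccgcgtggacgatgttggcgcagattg
Atf3, chr1:191183284-191183583, reverse strand: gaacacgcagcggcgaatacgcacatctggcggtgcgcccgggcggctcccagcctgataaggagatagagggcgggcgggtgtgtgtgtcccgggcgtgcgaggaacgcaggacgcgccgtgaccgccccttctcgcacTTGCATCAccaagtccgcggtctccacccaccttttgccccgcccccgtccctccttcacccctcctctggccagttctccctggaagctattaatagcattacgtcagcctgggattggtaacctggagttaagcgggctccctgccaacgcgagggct
Chac1, chr2:119350992-119351291, forward strand: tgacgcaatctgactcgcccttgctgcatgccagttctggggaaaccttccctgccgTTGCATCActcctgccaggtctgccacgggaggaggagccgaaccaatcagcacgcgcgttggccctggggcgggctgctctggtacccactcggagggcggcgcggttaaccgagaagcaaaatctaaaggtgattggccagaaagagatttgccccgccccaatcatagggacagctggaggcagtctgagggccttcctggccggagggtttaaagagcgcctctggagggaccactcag
Trib3, chr2:152344011-152344310, reverse strand: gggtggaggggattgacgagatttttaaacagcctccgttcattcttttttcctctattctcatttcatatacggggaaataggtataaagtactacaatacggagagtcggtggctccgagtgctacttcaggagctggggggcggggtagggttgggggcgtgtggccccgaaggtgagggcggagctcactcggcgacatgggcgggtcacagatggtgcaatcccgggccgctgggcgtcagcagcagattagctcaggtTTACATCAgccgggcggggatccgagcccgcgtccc
Asns, chr6:7693160-7693459, reverse strand: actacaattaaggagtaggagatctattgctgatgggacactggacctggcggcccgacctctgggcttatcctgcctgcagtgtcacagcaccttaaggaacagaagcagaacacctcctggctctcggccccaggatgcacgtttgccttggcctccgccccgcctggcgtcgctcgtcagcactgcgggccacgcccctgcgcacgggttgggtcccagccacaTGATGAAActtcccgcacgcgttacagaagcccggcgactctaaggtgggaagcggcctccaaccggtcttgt

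The composite element TGATGNAA was found in 4 of the 10 genes and in 3.97% of the 32851 promoters of the same length in RefSeq. Its first base lay 110 bases before the start in *Atf3*, 193 before it in *Chac1* and 23 before it in *Asns*, and 14 bases after the start in *Trib3*. The cyclic AMP response element TGACGTCA, whose letters read the same on both strands, was found in *Ppp1r15a*, 12 bases before the start, and in 1.79% of promoters. TGACTCA, the AP-1 element, which overlapped none of the other matches, was found 242 bases before the start of *Ddit3* and in 5.2% of promoters. None of these letters occurred in either *Gdf15* window or in those of *Sesn2*, *Atf4* and *Ddit4*.

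*Gdf15* (ENSMUSG00000038508) lies on the reverse strand of chromosome 8 from 70629393 to 70632456 in GENCODE (GRCm38). In Ncoa6-sufficient cells it had 1363 and 1255 normalized counts in medium alone and 1200 and 1625 after LPS + MSU, where a normalized count is a count scaled to the mean effective library size. In Ncoa6-KO cells it had 1734 and 1437 normalized counts in medium alone and 4852 and 5293 after LPS + MSU. Both Ncoa6-KO libraries with LPS + MSU stood above the other 6 libraries. In increasing order the group means were 1309 ± 76.3 (SD, n = 2) in Ncoa6-sufficient cells with medium alone, 1412 ± 301 in Ncoa6-sufficient cells with LPS + MSU, 1586 ± 210 in Ncoa6-KO cells with medium alone and 5073 ± 311 in Ncoa6-KO cells with LPS + MSU. Neighbours among the first 3 of these groups overlapped.

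The log2 difference of *Gdf15* between the genotypes was 0.28 (standard error, SE, 0.141) with medium alone and 1.84 (SE 0.145), or 3.59-fold, with LPS + MSU. The difference of these, the interaction, was 1.57 (SE 0.200) on the log2 scale. LPS + MSU moved *Gdf15* by a log2 difference of 1.68 (SE 0.143) in Ncoa6-KO cells. In Ncoa6-sufficient cells the log2 difference was 0.11 (SE 0.143), which became -0.08 without the second and 0.36 without the first Ncoa6-sufficient library with LPS + MSU. With total-count scaling the same values were 1.04 in Ncoa6-KO and -0.56 in Ncoa6-sufficient cells. All these values belong to the contrasts that selected *Gdf15*, and in bulk RNA a higher level per cell and a larger share of expressing cells cannot be told apart.

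**Figure D1:**
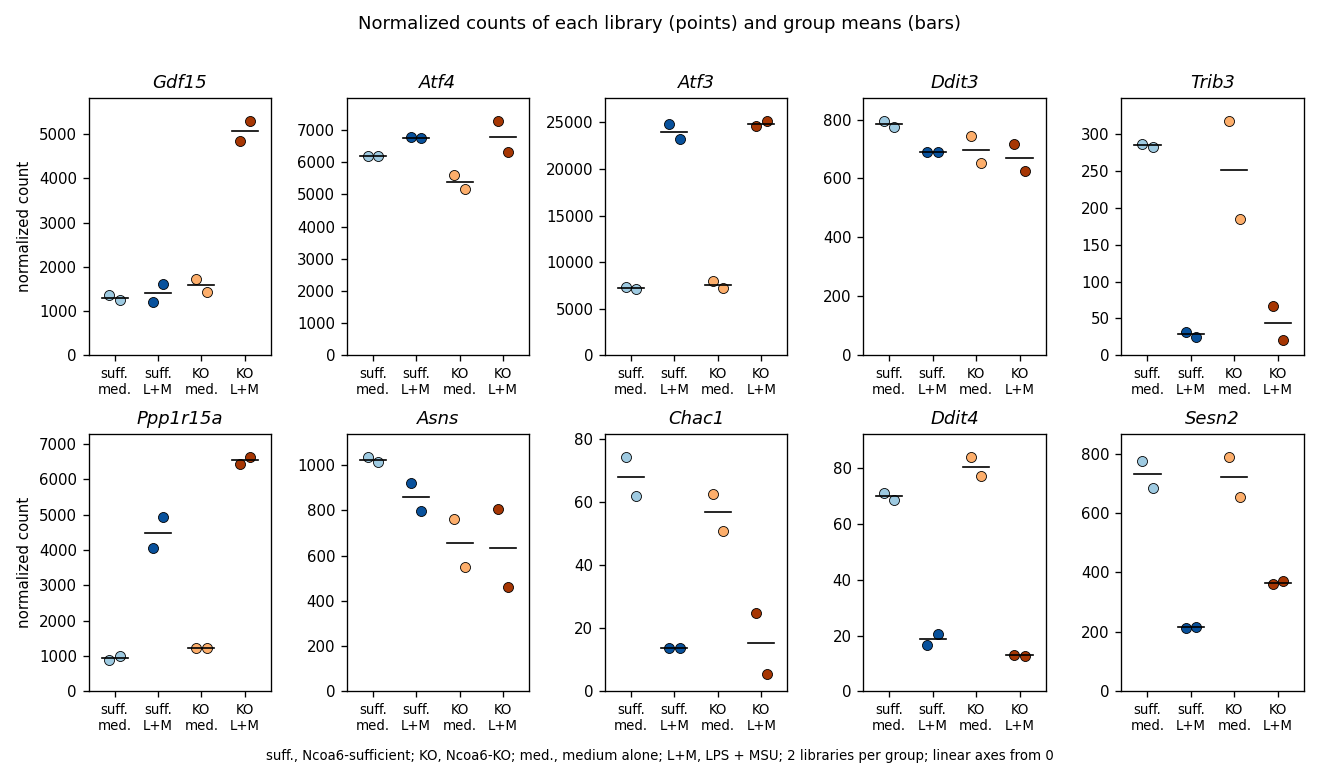
Normalized counts (y axes, linear, from 0) of *Gdf15* and the 9 other genes in each of the 8 libraries, with 1 panel per gene. Points are libraries, bars are means of 2 libraries, and the x axis gives the genotype and culture condition. *Gdf15* is between 1200 and 1734 in 6 libraries and at 4852 and 5293 in Ncoa6-KO libraries with LPS + MSU, whereas *Trib3*, *Chac1*, *Ddit4* and *Sesn2* are lower with LPS + MSU in both genotypes.

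Per kilobase of annotated exons, the mean level over the 8 libraries was 1270 normalized counts for *Gdf15*, below only *Atf3* and *Atf4* among the 10 genes. *Atf3* was at 7390 and *Atf4* at 2660 normalized counts per kilobase, and *Ppp1r15a* at 1120 was next below *Gdf15*. *Ddit3* followed at 415, *Asns* at 290 and *Sesn2* at 146. *Trib3*, *Ddit4* and *Chac1* had the lowest levels, 71.4, 26 and 23.5 normalized counts per kilobase. With LPS + MSU, *Ddit4* and *Chac1* rested on between 4 and 19 counts per library.

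Whether the other 9 genes shared the *Gdf15* pattern was examined first in the response to LPS + MSU. In Ncoa6-sufficient cells, 2 of the 9 genes were higher and 4 were lower with LPS + MSU at an adjusted p-value under 0.05, where 24.7% of all genes tested were higher and 30.5% lower. In Ncoa6-KO cells, 3 were higher and 4 lower, where 25.2% of all genes were higher and 27.9% lower. The median log2 difference of the 9 genes was -0.25 in Ncoa6-sufficient and -0.06 in Ncoa6-KO cells, beside -0.12 and -0.07 over all genes tested. The split of all calls depended on the scaling. With TMM scaling 4362 genes were higher and 5375 lower in Ncoa6-sufficient cells, and with total-count scaling, which was chosen after seeing the data, 2498 were higher and 9653 lower. In Ncoa6-KO cells the numbers were 4446 and 4913 with TMM and 2540 and 9313 with total-count scaling. Total-count scaling moved the median of all genes by -0.66 in Ncoa6-sufficient and -0.63 in Ncoa6-KO cells on the log2 scale, and with it 2 of the 9 genes were higher and 7 lower in either genotype. The p-values rest on a spread shared among genes, since an exact permutation test of 2 libraries against 2 cannot go below 0.333.

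The transcription factors of the response differed from each other. *Atf4* (chromosome 15 from 80255184 to 80257541), the central activator, had 6194 and 6201 normalized counts in medium alone and 6776 and 6752 after LPS + MSU in Ncoa6-sufficient cells. In Ncoa6-KO cells it had 5592 and 5152, and 7270 and 6323 with LPS + MSU. Its levels stayed within 5152 and 7270 normalized counts in the 8 libraries. The log2 difference with LPS + MSU was 0.13 (SE 0.101, adjusted p = 0.316) in Ncoa6-sufficient cells. It was 0.34 (SE 0.101, adjusted p = 0.0147) in Ncoa6-KO cells, a rise that was not called without the first Ncoa6-KO library with LPS + MSU (0.23, adjusted p = 0.143) or without the second with medium alone (0.28, adjusted p = 0.0737), and that turned to a fall of -0.30 with total-count scaling.

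*Atf3* (chromosome 1 from 191170296 to 191218039), a stress-induced transcription factor that limits inflammatory gene expression in macrophages, had 7311 and 7112 normalized counts in medium alone and 24865 and 23164 after LPS + MSU in Ncoa6-sufficient cells. Ncoa6-KO cells had 7936 and 7257 in medium alone and 24561 and 25118 after LPS + MSU. *Atf3* rose with LPS + MSU by a log2 difference of 1.74 (SE 0.105, adjusted p = 9.92e-08) in Ncoa6-sufficient and 1.71 (SE 0.105, adjusted p = 1.18e-07) in Ncoa6-KO cells. Its libraries separated by culture condition, and the genotypes overlapped within each.

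*Ddit3* (chromosome 10 from 127290774 to 127296288) encodes CHOP, a transcription factor of prolonged stress. It had 794 and 774 normalized counts in medium alone and 689 and 689 after LPS + MSU in Ncoa6-sufficient cells, and 742 and 652, and 716 and 625 with LPS + MSU, in Ncoa6-KO cells. Neither log2 difference with LPS + MSU, -0.19 (SE 0.106) in Ncoa6-sufficient and -0.06 (SE 0.106) in Ncoa6-KO cells, passed the test. *Ddit3* overlaps *Mars*, on the opposite strand, by 68 bp, and *Mars* had between 602 and 1962 counts per library. A second gene identifier with the symbol *Ddit3* was not used here.

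*Trib3* (chromosome 2 from 152337422 to 152344032) encodes a pseudokinase that is a target of ATF4 and CHOP and restrains them. In Ncoa6-sufficient cells it went from 287 and 282 normalized counts to 31.9 and 24.8 with LPS + MSU, a log2 difference of -3.32 (SE 0.409, adjusted p = 3.31e-05). In Ncoa6-KO cells it went from 317 and 184 to 66.7 and 21.0, a log2 difference of -2.50 (SE 0.380, adjusted p = 1.84e-04). The Ncoa6-KO libraries differed among themselves more than the Ncoa6-sufficient ones, and the second was lower in both culture conditions. Without the first Ncoa6-KO library with LPS + MSU the value was -3.58, and without the second it was -1.91. *Trib3* lies 3.05 Mb from *Ncoa6*, which is floxed in both genotypes. *Ddit3* lies 10 Mb from *Lyz2*, which carries Cre only in Ncoa6-KO mice. Whether position bears on the counts of *Trib3* or *Ddit3* was not tested.

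*Ppp1r15a* (chromosome 7 from 45522916 to 45526268) encodes GADD34, which directs the dephosphorylation of eIF2α and so ends the response. In Ncoa6-sufficient cells it had 896 and 996 normalized counts in medium alone and 4048 and 4925 after LPS + MSU, a rise by a log2 difference of 2.25 (SE 0.113, adjusted p = 2.48e-08). In Ncoa6-KO cells it had 1221 and 1232, and 6452 and 6637 with LPS + MSU, a rise by 2.42 (SE 0.113, adjusted p = 1.51e-08). *Ppp1r15a* shares 717 bp with *Tulp2* on the opposite strand, which had between 0 and 4 counts per library.

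*Asns* (chromosome 6 from 7675169 to 7693254), the asparagine synthetase gene and a classical ATF4 target, had 1036 and 1012 normalized counts in medium alone and 921 and 797 after LPS + MSU in Ncoa6-sufficient cells. Ncoa6-KO cells had 763 and 549 in medium alone, and 808 and 462 after LPS + MSU. Its response to LPS + MSU did not pass the test in either genotype, with log2 differences of -0.25 (SE 0.216, adjusted p = 0.347) and -0.05 (SE 0.221, adjusted p = 0.873).

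The last 3 genes fell with LPS + MSU in both genotypes. *Chac1* (chromosome 2 from 119351229 to 119354381), which encodes an enzyme that degrades glutathione, went from 74.3 and 61.9 to 13.9 and 13.8 normalized counts in Ncoa6-sufficient cells (log2 difference -2.29, SE 0.452, adjusted p = 0.00114). In Ncoa6-KO cells *Chac1* went from 62.6 and 50.9 to 24.8 and 5.60 (log2 difference -1.87, SE 0.445, adjusted p = 0.00416), which was -3.33 without the first and -1.19 without the second Ncoa6-KO library with LPS + MSU. *Ddit4* (chromosome 10 from 59949669 to 59951834), which encodes REDD1, an inhibitor of mTORC1, went from 71.3 and 68.8 to 16.6 and 20.7 normalized counts in Ncoa6-sufficient cells (log2 difference -1.90, SE 0.270, adjusted p = 1.01e-04). In Ncoa6-KO cells *Ddit4* went from 84.1 and 77.3 to 13.1 and 12.6 (log2 difference -2.64, SE 0.284, adjusted p = 1.18e-05). For both genes the culture conditions did not overlap in either genotype, which also held for *Atf4*, not called in Ncoa6-sufficient cells. *Sesn2* (chromosome 4 from 132492032 to 132510501), which encodes a leucine sensor that restrains mTORC1 and is a target of both ATF4 and p53, went from 776 and 686 to 213 and 216 normalized counts in Ncoa6-sufficient cells (log2 difference -1.77, SE 0.129, adjusted p = 4.53e-07). In Ncoa6-KO cells *Sesn2* went from 788 and 654 to 361 and 371 (log2 difference -0.98, SE 0.122, adjusted p = 3.87e-05). *Sesn2* contains a gene model on its own strand, Gm12981, that had between 0 and 2 counts per library.

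**Figure D2:**
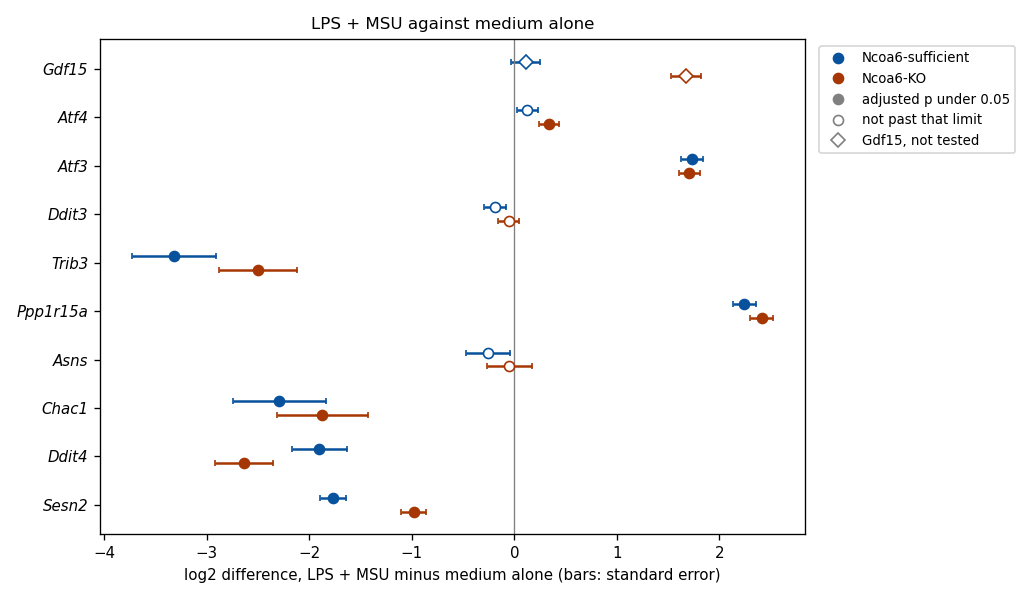
Log2 difference between LPS + MSU and medium alone (x axis, bars are standard errors) for *Gdf15* and the 9 other genes (y axis) in Ncoa6-sufficient and Ncoa6-KO cells. Filled points have an adjusted p-value under 0.05 and *Gdf15* was not tested. *Atf3* and *Ppp1r15a* lie to the right of 0 and *Trib3*, *Chac1*, *Ddit4* and *Sesn2* to the left in both genotypes, while *Gdf15* is at 0.11 in Ncoa6-sufficient and 1.68 in Ncoa6-KO cells.

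Between the genotypes with medium alone, none of the 9 genes was called at the adjusted p-value of 0.05 in edgeR, in DESeq2 or in limma-voom, where 0.573% of all genes tested were higher and 1.3% lower in Ncoa6-KO cells. At an unadjusted p-value under 0.05, 2 of the 9 genes passed, where 12.8% of all genes tested did. These were *Asns*, with a log2 difference of -0.64 (SE 0.214, adjusted p = 0.198), and *Ppp1r15a*, with 0.38 (SE 0.110, adjusted p = 0.136). For both of these genes the genotypes did not overlap, but neither did they for *Atf4*, *Ddit3* and *Ddit4*, which did not pass the unadjusted limit. The adjusted p-values over the alternatives ran from 6.21e-06 to 0.227 for *Asns* and from 0.0213 to 0.126 for *Ppp1r15a*. Both passed without the filter on low counts and with the replicate number in the model. Among all genes 1152 and 1023 were called in these settings, beside 331 in the main fit.

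With LPS + MSU, *Sesn2* and *Ppp1r15a* were higher in Ncoa6-KO than in Ncoa6-sufficient cells and the other 7 genes did not pass the test. The background was 1.96% of all genes tested higher and 1.63% lower, which with TMM scaling was 345 genes higher and 287 lower. The balance was 344 and 505 with DESeq2 and 480 and 218 with total-count scaling. The *Sesn2* libraries stood at 361 and 371 normalized counts in Ncoa6-KO and at 213 and 216 in Ncoa6-sufficient cells, a log2 difference of 0.77 (SE 0.135, adjusted p = 0.0142), or 1.7-fold. The *Ppp1r15a* libraries stood at 6452 and 6637 in Ncoa6-KO and at 4048 and 4925 in Ncoa6-sufficient cells, a log2 difference of 0.54 (SE 0.107, adjusted p = 0.0219), or 1.46-fold. Neither gene's genotypes overlapped, but neither did those of *Ddit4*, which was not called. How many of all genes separate in this way was not counted, so that separation of 2 libraries from 2 carries little weight. The differences of *Sesn2* and *Ppp1r15a* were smaller than the 3.59-fold one of *Gdf15*. The adjusted p-values over the alternatives with all libraries of the comparison ran from 1.42e-05 to 0.044 for *Sesn2* and from 7.34e-05 to 0.056 for *Ppp1r15a*, which lost its call in a fit of only the 4 libraries compared.

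The calls of both genes depended on single libraries. Without the first Ncoa6-sufficient library with LPS + MSU, *Sesn2* had a log2 difference of 0.75 (adjusted p = 0.123) and *Ppp1r15a* of 0.40 (adjusted p = 0.220). Without the second Ncoa6-KO library with LPS + MSU the values were 0.74 (adjusted p = 0.116) and 0.52 (adjusted p = 0.160). *Sesn2* was also not called without the second Ncoa6-sufficient library (0.77, adjusted p = 0.0528), nor *Ppp1r15a* without the first Ncoa6-KO library (0.55, adjusted p = 0.0693). Without the first Ncoa6-sufficient library 49 of all genes tested were called. The number was 63 when the second Ncoa6-KO library was left out and 632 with all libraries.

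Among the genes that did not pass with LPS + MSU, *Trib3* had a log2 difference of 0.64 (SE 0.512), which was -0.45 without the first Ncoa6-KO library with LPS + MSU. *Ddit4* had -0.53 (SE 0.356) and *Chac1* 0.16 (SE 0.567). *Asns* had -0.43 (SE 0.224), which was called lower without the filter on low counts (adjusted p = 0.0115, among 1611 genes called). Without the first Ncoa6-KO library with LPS + MSU the value of *Asns* was -0.91. *Atf3* at 0.05 (SE 0.102), *Atf4* at 0.01 (SE 0.101) and *Ddit3* at -0.04 (SE 0.109) had smaller differences. The median of the 9 genes was 0.05, beside 0.00039 over all genes tested. The sign of *Atf4* turned with DESeq2, and that of *Ddit3* with total-count scaling.

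**Figure D3:**
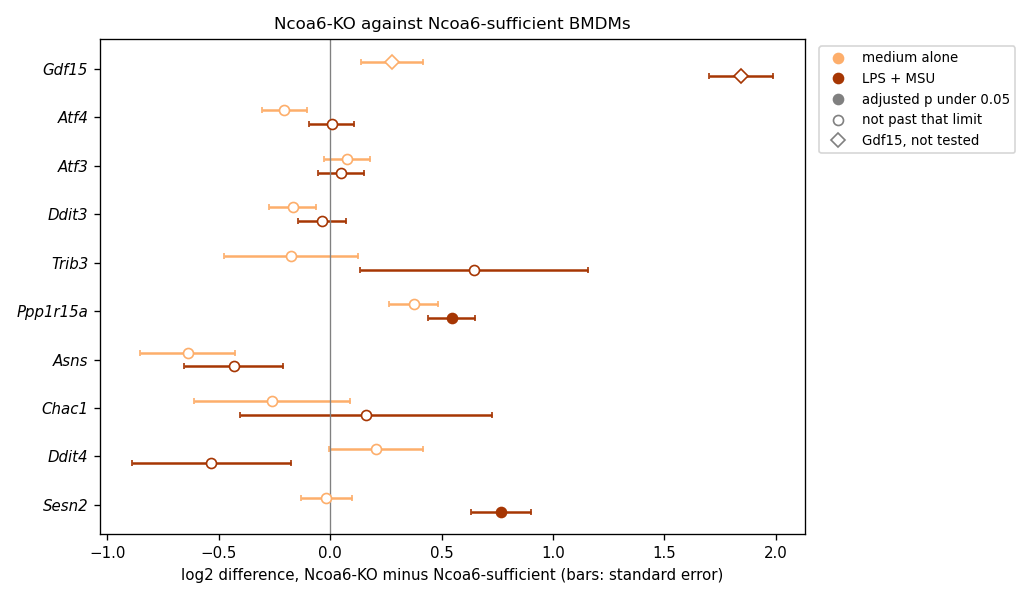
Log2 difference between Ncoa6-KO and Ncoa6-sufficient cells (x axis, bars are standard errors) for *Gdf15* and the 9 other genes (y axis), in medium alone and after LPS + MSU. Filled points have an adjusted p-value under 0.05 and *Gdf15* was not tested. The only filled points are *Sesn2* at 0.77 and *Ppp1r15a* at 0.54 with LPS + MSU, and *Gdf15* with LPS + MSU lies farthest from 0, at 1.84.

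The interaction, the knockout effect with LPS + MSU minus that with medium alone, asks whether the knockout effect of a gene depended on the culture condition. This is a part of the pattern of *Gdf15*, and a gene can have a positive interaction without rising with LPS + MSU. None of the 9 genes passed it in edgeR as fitted here, in DESeq2 or in limma-voom. In edgeR 0% of all genes tested did, so that not passing there does not set the 9 genes apart from *Gdf15*. At an unadjusted p-value under 0.05 there were 1045 genes, or 5.93% of those tested, and DESeq2 called 45 genes and limma-voom 0. Of the 9 genes *Sesn2* passed that unadjusted limit, with a log2 value of 0.79 (SE 0.177, adjusted p = 0.406). Unlike *Gdf15*, *Sesn2* fell with LPS + MSU, by -1.77 in Ncoa6-sufficient and by -0.98 in Ncoa6-KO cells. The adjusted p-value of *Sesn2* ran from 0.00308 to 0.619 over the alternatives. *Sesn2* passed in edgeR without the filter on low counts (adjusted p = 0.00793, among 269 genes called). It also passed with the replicate number as a block within each genotype (adjusted p = 0.00308, among 444 genes called). For *Trib3* the interaction was 0.82 (SE 0.594), and for *Chac1* 0.42 (SE 0.668), errors too wide to place these genes beside *Gdf15* or apart from it. *Ddit4* had -0.74 (SE 0.414), of the opposite sign to the 1.57 (SE 0.200) of *Gdf15*, and stayed between -0.935 and -0.624 with any library left out. *Ppp1r15a* had 0.17 (SE 0.154), *Atf4* 0.21 (SE 0.142), *Asns* 0.21 (SE 0.309), *Ddit3* 0.13 (SE 0.150) and *Atf3* -0.03 (SE 0.144). The value of *Atf3* turned to 0.01 with total-count scaling.

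The genes with the pattern most like that of *Gdf15* were found by the root mean square difference between the genes' log2 group means over the 4 groups, each gene centred on its own mean, among the 11218 genes that averaged 50 or more normalized counts. The 5 closest were *Cdkn2b* at 0.243 on the log2 scale, Gm27177 at 0.250, *Ampd3* at 0.263, *Penk* at 0.318 and *Layn* at 0.372. *Cdkn2b*, which encodes a cyclin-dependent kinase inhibitor, had 144 and 235 normalized counts in Ncoa6-KO libraries with LPS + MSU and between 55.9 and 86.8 in the other 6. Gm27177 had 460 and 304 there and between 68.3 and 169 in the others. *Ampd3*, which encodes an AMP deaminase, had 3276 and 4602 normalized counts there and between 1306 and 2022 in the others. *Penk*, which encodes proenkephalin, had 184 and 259 there, against 68.3 and 68.0 in Ncoa6-sufficient cells in medium alone and 79.0 and 82.6 after LPS + MSU, and 108 and 143 in Ncoa6-KO cells with medium alone. *Layn*, which encodes the membrane protein layilin, had 562 and 726 normalized counts there and between 253 and 431 in the others. Like *Gdf15*, each of the 5 genes had its 2 highest libraries in Ncoa6-KO cells with LPS + MSU, which is how the measure of likeness chose them and is given as a description. The set depended on the measure: *Ampd3* alone remained among the 5 closest when the means were also divided by their SD, and *Ampd3* and *Layn* when an average of 200 or more normalized counts was required.

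The other stress response genes ranked far below these. *Atf4* was nearest to *Gdf15* at rank 2460 and a root mean square difference of 0.753, followed by *Atf3* at rank 2841 and 0.767. *Ddit3* had rank 4946, *Ppp1r15a* 4968, *Asns* 7641 and *Sesn2* 8898. *Chac1*, *Ddit4* and *Trib3* were at ranks 10405, 10519 and 10776 of 11218. *Chac1* and *Ddit4*, with means of 38.5 and 45.6 normalized counts, are not among these 11218 genes and were placed against them. The root mean square difference also depends on how much a gene changes, and the centred means of *Atf4* ran only from -0.22 to 0.12. By shape alone, with the means divided by their SD, *Ppp1r15a* ranked highest of the 9 genes, at 860, and *Atf3* followed at 1606. *Atf4* was at 3708, *Sesn2* at 6049, *Trib3* at 8050, *Chac1* at 9459, *Ddit3* at 9476, *Ddit4* at 10044 and *Asns* at 10379.

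**Figure D4:**
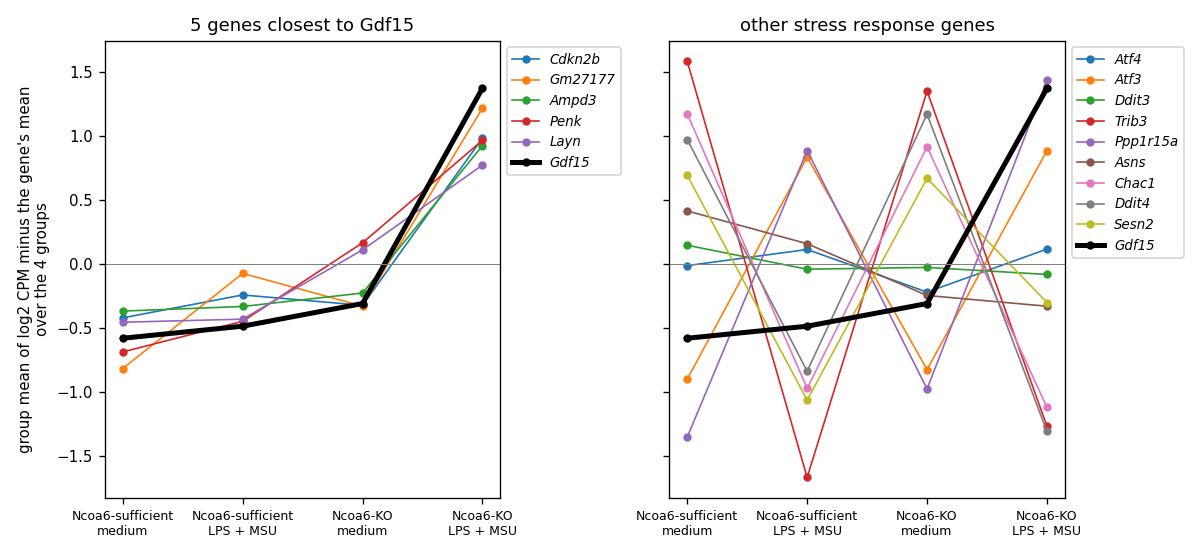
Group means of log2 CPM minus each gene's mean over the 4 groups (y axis) in the 4 groups (x axis) for the 5 genes closest to *Gdf15* (left) and the 9 other stress response genes (right), with *Gdf15* as the thick black line in both. Lines only join the groups of 1 gene. *Gdf15* runs from -0.58 to -0.31 over the first 3 groups and is at 1.37 in Ncoa6-KO cells with LPS + MSU, the course by which the 5 genes on the left were chosen, whereas *Trib3*, *Chac1*, *Ddit4* and *Sesn2* are lower with LPS + MSU than with medium alone in both genotypes.

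Upstream of *Atf4*, a list of 12 genes for the kinases and the translation factor machinery of the response had 0 genes called between the genotypes with medium alone (1 at an unadjusted p-value under 0.05) and 1 with LPS + MSU (4 unadjusted). Over all genes tested, 12.8% with medium alone and 17.4% with LPS + MSU passed that unadjusted limit between the genotypes. The gene called was *Ppp1r15b*, the constitutive counterpart of *Ppp1r15a*, which fell by a log2 difference of -0.71 (SE 0.148, adjusted p = 0.0288), from 14203 and 11020 to 8629 and 6821 normalized counts. With LPS + MSU in Ncoa6-sufficient cells, 3 of the 12 rose and 3 fell, a share near the 24.7% of all genes that were higher and 30.5% that were lower. *Eif2ak2*, the interferon-induced kinase PKR, rose by a log2 difference of 2.68, and *Eif2ak3* and *Eif2ak4*, the kinases PERK and GCN2, fell by -2.56 and -1.76. In Ncoa6-KO cells, 3 rose and 2 fell, with *Eif2ak2* at 2.85, *Ppp1r15b* at 1.84, *Eif2ak3* at -2.22 and *Eif2ak4* at -1.63. *Eif2s1*, which encodes eIF2α, rose by 0.55 there, and had -0.09 with total-count scaling. In Ncoa6-sufficient cells *Eif2s1* rose by 0.65 and *Ppp1r15b* by 2.24, and both were called. The value of *Eif2s1* with total-count scaling was not examined there, where that scaling moved the median of all genes by -0.66.

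Other ATF4 targets were divided by function. Of 20 genes for amino acid synthesis and transport, only *Psat1*, a gene of serine synthesis, was called between the genotypes, lower in Ncoa6-KO cells by -0.60 (SE 0.124, adjusted p = 0.0385) with medium alone and by -0.75 (SE 0.128, adjusted p = 0.0129) with LPS + MSU. *Psat1* had 1736 and 1579 normalized counts in Ncoa6-sufficient and 1015 and 1167 in Ncoa6-KO cells with medium alone, and 1780 and 1482 against 1062 and 880 with LPS + MSU. At an unadjusted p-value under 0.05, 7 of the 20 genes differed between the genotypes in medium, where 12.8% of all genes did. *Psat1*, *Shmt2* (-0.38), *Mthfd2* (-0.38), *Slc7a5* (-0.71), *Slc3a2* (-0.25) and *Slc7a1* (-0.24) were lower in Ncoa6-KO cells, and *Slc6a9* (1.02) was higher. After LPS + MSU 4 passed, beside 17.4% of all genes. *Psat1*, *Shmt2* (-0.35) and *Slc7a5* (-0.61) were lower in Ncoa6-KO cells there, and *Slc7a11* (0.90) was higher. The list median was -0.24 in medium and -0.099 after LPS + MSU, beside -0.03 and 0.00039 over all genes. With LPS + MSU against medium alone, 3 of the 20 genes rose and 8 fell in Ncoa6-sufficient cells, and 4 rose and 8 fell in Ncoa6-KO cells. Over all genes tested 24.7% were higher and 30.5% lower in Ncoa6-sufficient cells and 25.2% and 27.9% in Ncoa6-KO cells, so that the number of calls in the list was near the background. *Slc7a11*, the cystine transporter, rose by 3.70 and 3.94 and *Slc3a2*, its partner subunit, by 0.96 and 1.03, whereas *Pck2*, the mitochondrial phosphoenolpyruvate carboxykinase, fell by -2.39 and -2.35. *Slc38a2*, a glutamine transporter, fell by -1.38 in Ncoa6-sufficient and -1.085 in Ncoa6-KO cells. *Slc1a4* fell by -1.02 and -1.26, and both genes were called in both genotypes. In Ncoa6-KO cells *Slc1a4* was not called without the second library with LPS + MSU (-1.03) or without the first with medium alone (-0.65).

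Among 13 genes for tRNA synthetases and tRNA export, 0 were called between the genotypes in either culture condition, with 3 and 2 at an unadjusted p-value under 0.05, beside 12.8% and 17.4% of all genes. With LPS + MSU, *Wars*, the interferon-inducible tryptophanyl-tRNA synthetase gene, rose by 2.20 in Ncoa6-sufficient and 2.12 in Ncoa6-KO cells. In the same order 8 and 6 genes of the list fell, where 30.5% and 27.9% of all genes did. *Sars* fell by -0.78 and -0.53, *Xpot* by -0.75 and -0.69 and *Mars* by -0.70 and -0.54, all called in both genotypes. Of 6 tested regulators and secreted factors, *Atf5* was higher in Ncoa6-KO cells with LPS + MSU by 0.78 (SE 0.140, adjusted p = 0.0151), with 721 and 644 against 388 and 406 normalized counts. *Atf5*, an ATF4-related transcription factor, fell by -0.89 with LPS + MSU in Ncoa6-sufficient cells and had -0.15 in Ncoa6-KO cells, where it was not called. With medium alone *Nupr1*, a stress-induced chromatin protein, was lower in Ncoa6-KO cells by -1.02 (SE 0.164, adjusted p = 0.0144). *Vldlr*, a lipoprotein receptor, was higher there by 1.60 (SE 0.338, adjusted p = 0.0419). It was at low levels, 43.8 and 53.6 normalized counts in Ncoa6-KO against 18.8 and 12.9 in Ncoa6-sufficient cells. *Cebpb* and *Nupr1* rose with LPS + MSU in both genotypes, *Cebpb* by 1.51 and 2.09 and *Nupr1* by 1.93 and 2.44, and *Cebpg* fell by -1.81 and -1.50. *Eif4ebp1* had -0.50 and -0.42, of which the first was not called without the second Ncoa6-sufficient library with LPS + MSU (-0.34, adjusted p = 0.0588) and the second not without the second Ncoa6-KO library with LPS + MSU (-0.37, adjusted p = 0.0641) or the first with medium alone (-0.30, adjusted p = 0.0852).

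The branch of the unfolded protein response in the endoplasmic reticulum was represented by 17 genes, of which 0 were called between the genotypes in edgeR and 8 had an unadjusted p-value under 0.05 in each culture condition, where 12.8% of all genes did in medium alone and 17.4% after LPS + MSU. The median log2 difference of the list was -0.24 in medium alone and -0.26 after LPS + MSU, beside -0.03 and 0.00039 over all genes tested. With LPS + MSU, *Hspa5*, the chaperone BiP, rose by 1.20 in Ncoa6-sufficient and 1.23 in Ncoa6-KO cells, and *Dnajb9* fell by -1.37 and -1.44. *Dnajb11* rose by 0.70 and 0.72, which were 0.03 and 0.08 with total-count scaling and no longer called. *Ern1*, the sensor IRE1, fell by -1.12 in Ncoa6-sufficient and -0.85 in Ncoa6-KO cells. *Herpud1* fell by -0.99 and -1.29, and both genes were called in both genotypes.

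*Gdf15* and *Sesn2* are also known targets of p53. A list of 18 genes of p53 and its targets, chosen with earlier results of these data known, was therefore compared. With medium alone 3 of them were higher in Ncoa6-KO cells and 0 lower, and with LPS + MSU 5 were higher and 1 lower. Of all genes tested 0.573% were higher and 1.3% lower in medium alone, and 1.96% and 1.63% after LPS + MSU. The median log2 difference was 0.27 in medium alone and 0.32 after LPS + MSU, beside -0.03 and 0.00039 over all genes tested. *Phlda3*, which restrains the kinase AKT, was higher by 1.06 (SE 0.218, adjusted p = 0.0386) with medium alone, where it had 635 and 923 against 379 and 366 normalized counts. With LPS + MSU *Phlda3* had 521 and 817 against 140 and 190, a log2 difference of 2.02 (SE 0.250, adjusted p = 0.00367). *Trp53inp1* had 614 and 967 against 265 and 369 with LPS + MSU, a log2 difference of 1.32 (SE 0.210, adjusted p = 0.0102). *Zmat3* had 1406 and 1603 against 811 and 845 with medium alone, a log2 difference of 0.86 (SE 0.169, adjusted p = 0.0317). *Eda2r* was at low levels, 57.7 and 63.2 against 16.5 and 21.5 normalized counts with medium alone, a log2 difference of 1.67 (SE 0.315, adjusted p = 0.0271). *Btg2*, an antiproliferative gene, was lower with LPS + MSU, 284 and 274 against 744 and 545, by -1.21 (SE 0.165, adjusted p = 0.00517). *Cdkn1a*, *Zmat3* and *Eda2r* were also called higher with LPS + MSU, by 0.75, 1.18 and 2.73, and are named here after their values were seen. *Trp53* itself had 0.33 (adjusted p = 0.173) there and was not called. For the interaction 0 of the 18 genes were called and 2 had an unadjusted p-value under 0.05. Over all genes tested 0 were called and 5.93% passed the unadjusted limit. Whether p53 bears on the counts of *Gdf15* was not tested. *Fas* and *Cdkn1a* rose most with LPS + MSU against medium alone, by 3.84 and 2.75 in Ncoa6-sufficient and 3.68 and 2.99 in Ncoa6-KO cells, and *Sesn1* and *Trp53inp1* fell most, by -3.57 and -2.37 and by -3.54 and -1.82.

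**Figure D5:**
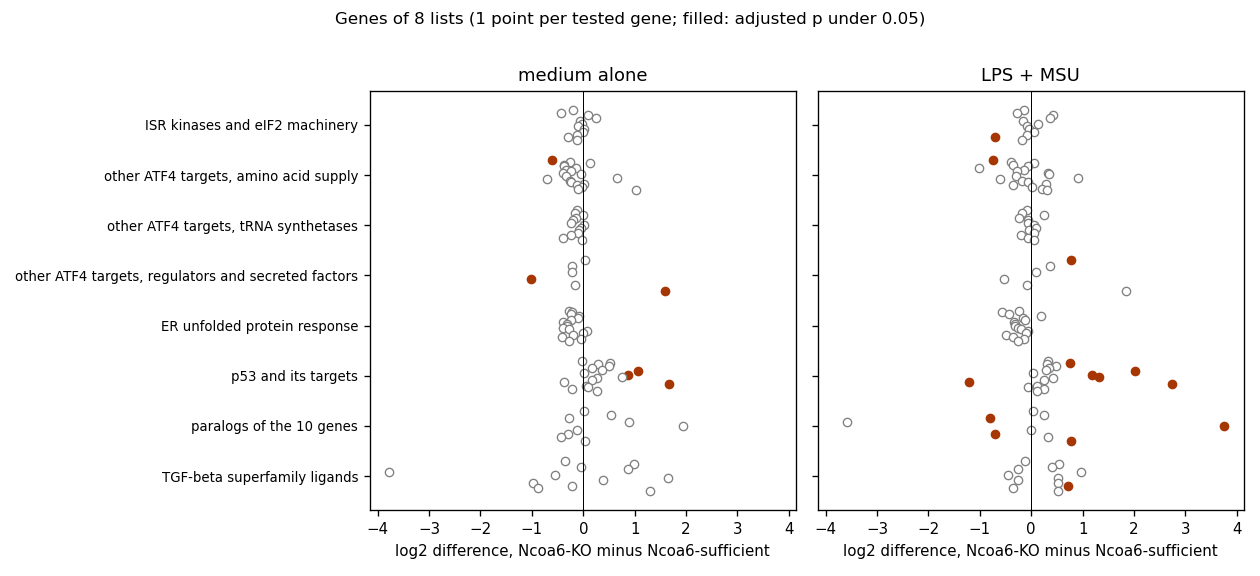
Log2 difference between Ncoa6-KO and Ncoa6-sufficient cells (x axis) of each tested gene in 8 lists (y axis) with medium alone (left) and LPS + MSU (right). Filled points have an adjusted p-value under 0.05. With LPS + MSU 5 filled points lie to the right and 1 to the left in the list of p53 and its targets, and none lies in the lists of tRNA synthetases and of the unfolded protein response.

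Paralogs of the stress response genes showed how far the differences between genotypes were shared within families. Of 9 paralogs, 0 were called with medium alone (3 at an unadjusted p-value under 0.05), and 2 were higher and 2 lower in Ncoa6-KO cells with LPS + MSU. Of all genes tested 12.8% passed the unadjusted limit with medium alone, and 1.96% were called higher and 1.63% lower with LPS + MSU. *Trib1* was lower by -0.80 (SE 0.145, adjusted p = 0.0155), with 436 and 478 against 883 and 715 normalized counts, and *Ppp1r15b* was lower and *Atf5* higher as given above. *Ddit4l* was called higher, but with 19.6 and 21.0 normalized counts against 0 and 2.75, so that no fold is given. The sestrin genes *Sesn1* and *Sesn3* had 0.04 (adjusted p = 0.926) and 0.25 (adjusted p = 0.315), where *Sesn2* was higher by 0.77. With LPS + MSU against medium alone, *Jdp2* rose by 3.87 and 4.62 and *Trib1* by 2.62 and 2.09 in Ncoa6-sufficient and Ncoa6-KO cells, and *Sesn1* fell together with *Sesn2*.

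Of 25 ligands of the TGF-β superfamily other than *Gdf15*, 12 had enough counts to be tested. With LPS + MSU *Bmp1*, a protease that was placed in the list by its name, was the only one called between the genotypes, higher in Ncoa6-KO cells by 0.72 (SE 0.160, adjusted p = 0.0353), with 653 and 730 against 410 and 428 normalized counts. With medium alone 0 were called (2 at an unadjusted p-value under 0.05). Over all genes tested, 1.96% were called higher and 1.63% lower with LPS + MSU, and 12.8% passed the unadjusted limit with medium alone. *Inhba*, which encodes the activin A subunit, rose with LPS + MSU by 5.78 in Ncoa6-sufficient and 4.66 in Ncoa6-KO cells and *Bmp1* by 4.16 and 5.11, unlike *Gdf15*, which had 0.11 in Ncoa6-sufficient cells. *Gfral*, the receptor of GDF15, had 0 counts in all 8 libraries, and its coreceptor gene *Ret* averaged 1.25 normalized counts.

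The calls of the named list genes between the genotypes also depended on single libraries. Without the first Ncoa6-sufficient library with LPS + MSU, all 12 of those called with LPS + MSU, *Cdkn1a*, *Zmat3* and *Eda2r* included, lost the call, with adjusted p-values from 0.0506 to 0.246. The log2 differences there were -0.52 for *Ppp1r15b*, -0.62 for *Psat1*, 0.74 for *Atf5*, 1.80 for *Phlda3*, 1.08 for *Trp53inp1*, -0.98 for *Btg2*, -0.66 for *Trib1* and 0.68 for *Bmp1*. They were 0.71 for *Cdkn1a*, 0.94 for *Zmat3* and 2.22 for *Eda2r*. Without the second Ncoa6-KO library with LPS + MSU, 11 of the 12 lost the call, with adjusted p-values from 0.0551 to 0.282. Fewer were lost without either of the other libraries with LPS + MSU, 3 without the second Ncoa6-sufficient and 4 without the first Ncoa6-KO library. With medium alone all 6 called genes lost the call without either Ncoa6-sufficient library, with adjusted p-values from 0.0928 to 0.383, and 5 of the 6 without the second Ncoa6-KO library. All 12 and all 6 genes kept their direction with any 1 library left out.

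Several sums of cell type markers also differed between the genotypes, the macrophage sum mainly through *Lyz2*. The 7 macrophage markers summed to 270000 to 310000 normalized counts in Ncoa6-KO and 405000 to 470000 in Ncoa6-sufficient cells with medium alone, and to 333000 to 352000 against 456000 to 516000 with LPS + MSU. *Lyz2*, which carries Cre in Ncoa6-KO mice, was the most abundant of them and made up most of these differences. Its means were 119774 normalized counts in Ncoa6-KO against 240995 in Ncoa6-sufficient cells with medium alone, and 126325 against 243832 with LPS + MSU. *Lyz2* was lower in Ncoa6-KO cells by -1.01 in medium alone, where it was the only macrophage marker called, and by -0.95 after LPS + MSU. With LPS + MSU *Itgam* was the only other one called, lower by -0.51. Of 5 osteoclast markers, which summed to between 445 and 1140 normalized counts, *Ctsk* was higher by 0.68 and 0.80 and *Dcstamp* was lower by -1.24 with medium alone. Stromal markers summed to between 138 and 469 normalized counts in Ncoa6-KO and 391 to 454 in Ncoa6-sufficient cells with medium alone, and to between 176 and 707 against 730 to 819 with LPS + MSU. T and NK cell markers, mostly *Cd4*, summed to between 30.7 and 73.7 normalized counts in Ncoa6-KO and 75.7 to 111 in Ncoa6-sufficient cells with medium alone, and to between 26.6 and 32.7 against 56.5 to 65.1 with LPS + MSU. For 4 B cell markers the sums were 27.2 to 38.9 against 33.5 to 50.3 with medium alone and 8.39 to 13.1 against 28.9 to 30.5 with LPS + MSU. Dendritic cell markers summed to 11.4 to 16.7 against 11.2 to 17.3 with medium alone and 133 to 169 against 171 to 206 with LPS + MSU. Neutrophil markers summed to 360 to 417 against 385 to 439 and to 695 to 759 against 693 to 887. The genotypes thus did not overlap in the macrophage and the T and NK cell sums in either culture condition. They also did not overlap in the stromal, B cell and dendritic cell sums with LPS + MSU. How often 2 libraries against 2 separate over all genes was not counted. No gene reported from the stromal, T and NK cell, B cell and dendritic cell lists was called between the genotypes. The part of these markers in the differences of *Gdf15*, *Sesn2* and *Ppp1r15a* was not tested.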

How the data were processed

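Poly(A) RNA of 8 BMDM libraries was analyzed. The authors aligned reads to GRCm38 with STAR 2.7.3a and deposited expected counts per gene from RSEM 1.3.3 with Ensembl release 101, not normalized, for 50615 genes. The expected counts were rounded, genes whose counts added up to less than 10 were dropped, and the 4 groups were fitted together with TMM scaling and the quasi-likelihood test of edgeR 4.0.16 in R 4.3.3, with 4 residual degrees of freedom. Calls required a p-value, adjusted by Benjamini and Hochberg across the 17625 tested genes, under 0.05. For normalized counts each library was brought to an effective size of 29332189, the mean of the 8, and per-kilobase levels divide them by the length of the annotated exons in a GENCODE annotation of GRCm38, another release than that of the counts. Promoters came from RefSeq, where all 10 genes matched.

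*Gdf15* and the other genes, the 9 pathway lists and the marker lists were chosen with earlier results of these data known. From each list the genes called in a comparison were named, or, above 5, the 2 with the largest rise and the 2 with the largest fall among those averaging 50 or more normalized counts. The alternatives were DESeq2 1.42.0, its size factors in edgeR, filterByExpr, no filter, limma-voom (limma 3.58.1) without rounding, the replicate number in the model, a fit restricted to the 4 libraries of a comparison, omission of every single library and, chosen after seeing the data, total-count scaling. Where a library is left out, the lone library of its group is assumed to vary like the other groups. The code was tested on simulated data.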

Additional observations from a re-analysis of the deposited data

How the results depend on the processing

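*Gdf15* kept the sign of its difference between genotypes and of its interaction in every setting tried, with log2 values from 1.81 to 1.91 between the genotypes with LPS + MSU and from 1.51 to 1.60 for the interaction, and with a library left out from 1.63 to 2.07 and from 1.32 to 1.75. Its response to LPS + MSU moved to -0.56 in Ncoa6-sufficient and 1.04 in Ncoa6-KO cells with total-count scaling, and ran from -0.0772 to 0.359 and from 1.55 to 1.82 with a library left out. Its spread between replicates was 0.192 on the log2 scale.

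The number of the 9 other genes called between the genotypes with medium alone was 0 and became 2 without the filter on low counts. With LPS + MSU it was 2, became 1 with only the 4 libraries compared and 3 without the filter (*Asns* then lower, -0.434, adjusted p = 0.0115), and ran from 0 to 2 with a library left out, where *Asns* was lower (-0.914, adjusted p = 0.0448) and *Sesn2* higher without the first Ncoa6-KO library with LPS + MSU. The interaction had 0 and became 1 without the filter. Among all genes, leaving out the filter moved the number called from 331 to 1152 with medium alone. That number moved from 632 to 1611 with LPS + MSU and from 0 to 269 for the interaction. Of the 5 genes closest to *Gdf15*, 1 remained by shape alone and 2 at an average of 200 or more normalized counts. Over 378 values of single genes other than those with a library left out, 349 kept direction and side of the limit, 13 came to pass it, 1 no longer passed and 15 changed sign, and the cause was not tested. With total-count scaling *Atf4* changed to -0.55 and -0.30 with LPS + MSU in the 2 genotypes, *Ddit3* to 0.0339 between genotypes with LPS + MSU, *Atf3* to 0.0124 for the interaction, *Sesn2* to 0.016 between genotypes with medium alone and *Eif2s1* to -0.088 with LPS + MSU in Ncoa6-KO cells. DESeq2 and its size factors in edgeR gave *Atf4* -0.0295 between genotypes with LPS + MSU, *Ddit3* 0.00142 and 0.00125 and *Asns* 0.0113 and 0.0103 with LPS + MSU in Ncoa6-KO cells, and *Sesn2* 0.000134 and 0.000234 between genotypes with medium alone, which was 0.00402 with only the 4 libraries compared. limma-voom gave *Chac1* -0.169 between genotypes with LPS + MSU.

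With a library left out, 326 of 360 values of single genes kept direction and side of the limit and 25 changed sign. Between genotypes with LPS + MSU the range was -0.0136 to 0.0900 for *Atf3*, -0.115 to 0.101 for *Atf4*, -0.156 to 0.0532 for *Ddit3*, -0.448 to 1.23 for *Trib3* and -1.30 to 0.837 for *Chac1*. With medium alone it was -0.624 to 0.157 for *Trib3* and -0.159 to 0.109 for *Sesn2*. For the response in Ncoa6-KO cells it was -0.164 to 0.0453 for *Ddit3* and -0.516 to 0.303 for *Asns*. For the interaction it was -0.127 to 0.0382 for *Atf3*, -0.0253 to 0.229 for *Ddit3*, -0.309 to 1.37 for *Trib3*, -1.08 to 1.06 for *Chac1*, -0.311 to 0.510 for *Asns*, -0.0143 to 0.267 for *Ppp1r15a* and -0.285 to 0.0494 for *Ncoa6*.

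Replicate numbers 1 and 2 recur in every group, and the sources used here do not say that equal numbers come from the same mouse. Deviations of same-numbered libraries from their group means correlated across 11219 genes at 0.31 and 0.369 between culture conditions and 0.195 and 0.199 between genotypes. With the replicate number as a block across all groups, 2 of the 9 genes were called between genotypes with medium alone, *Ppp1r15a* higher and *Asns* lower, among 1023 genes in all. With the block within each genotype, 1 was called for the interaction, *Sesn2* (0.79, adjusted p = 0.00308), among 444 genes. The block changed no other count of calls among the 9 genes by more than 1.5 times.

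With 2 libraries per group, most p-values rest on the shared spread, and *Ddit4* and *Chac1* with LPS + MSU on at most 19 counts per library.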
